A study of Mus musculus with 36 samples.

Results

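The 10 genes described here encode the contractile apparatus of smooth muscle and the coactivator that switches it on: Acta2, Myh11, Cnn1, Tagln, Des, Lmod1, Actg2, Smtn, Mylk and Myocd. They were listed by gene symbol and taken with all of their probe sets on the array. All 10 were found, among 18193 genes with a probe set of their own, and they had 17 of the 45101 probe sets. Each of the 10 passed the filter, which asked for 3 or more arrays above log2 5, and was tested with 11599 genes in all. Lmod1 and Myocd passed narrowly, with 8 and 6 of 36 arrays over that level. Below it the background model sets the values, which then have no order, so differences of Lmod1 and Myocd between groups under it are estimates of that model and not sizes.

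Lung RNA of 36 female C57BL/6 mouse samples had been hybridised to Affymetrix expression arrays, 1 array per sample, in 10 groups. Mice were sensitised on days 1, 4 and 7 with 50 µg of ovalbumin (OVA) by the intraperitoneal route, as 3 injections of 0.1 ml. From day 12 they received 20 µg of OVA into the nose once a week for 9 weeks, in 30 µl of phosphate-buffered saline (PBS). Control mice received PBS at the same times. WT mice were wild type with no engraftment. KitWsh mice carried the sash mutation of Kit, which leaves adult mice without mast cells, and had no engraftment. The KitWsh_MC and KitWsh_MCifngR groups were KitWsh mice with the engraftment labels MC and MCifngR, and the KitWsh_MCigeR group had the engraftment label MCigeR and the genotype label KitWsh/FcεRIγ-/-. The sources used here do not spell out these codes, which are read as donor mast cells that are wild type, that lack the interferon-γ receptor or that lack the IgE receptor. The FcεRIγ label could be that of donor or recipient, and KitWsh mice differ from WT mice in more than their mast cells. The 5 OVA groups and the WT PBS group had 4 arrays each, and the other 4 groups had 3. No label states whether arrays of 1 group came from separate animals, so p-values measure only the spread between these samples.

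In the lung, smooth muscle forms the wall of conducting airways and of pulmonary arteries and veins. Contraction begins when calcium and calmodulin activate myosin light chain kinase, the product of Mylk, which phosphorylates the myosin whose heavy chain Myh11 encodes, so that it can pull on filaments of the actins Acta2 and Actg2. Calponin (Cnn1), transgelin (Tagln), smoothelin (Smtn) and leiomodin (Lmod1) bind or nucleate those filaments, and desmin (Des) is the intermediate filament that ties them together. Most of these genes are switched on by serum response factor with its coactivator myocardin (Myocd), through a promoter element called the CArG box. Thickening of airway smooth muscle is a known feature of severe asthma. Whole-lung RNA holds airway and vascular muscle together, and a lower value could come from fewer muscle cells or from less RNA per cell, which cannot be told apart.

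The CArG box is printed for Acta2 because Acta2 carries the clearest difference among these genes. It consists of 2 C bases, 6 A or T bases and 2 G bases, and it reads as the same motif on either strand. RefSeq promoters (GRCm38.p6, 250 bases before to 50 after a listed start) were given for 6 of the 10 genes, namely Acta2, Cnn1, Des, Lmod1, Smtn and Mylk. None of those 6 held an exact CArG box, which 1.63% of 32851 promoters held. With up to 1 other base allowed among the 6 A or T bases, Acta2 alone of the 6 matched, at 2 places, where 9.98% of all promoters matched. Both lie on the minus strand of chromosome 19, before the start that the table lists and inside the span of the gene (34240336 to 34255585), and the capitals mark the motif.
Acta2, chr19:34255438-34255467, motif from -84 to -75 of the listed start: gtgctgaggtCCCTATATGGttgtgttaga
Acta2, chr19:34255388-34255417, motif from -34 to -25 of the listed start: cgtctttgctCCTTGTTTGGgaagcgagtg
A match describes these letters only, and the absence of one says nothing about binding of serum response factor elsewhere.

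A few arrays need to be known before the values. KitWsh_MCigeR PBS array 2 stood apart, with a median Pearson r of 0.543 to the other arrays, which had 0.882 to 0.971. Its beta-actin 3' minus 5' control difference, a sign of broken RNA when large, was 8.43 on the log2 scale, against 1.17 to 6.23 elsewhere, and it was low for most of these genes (Tagln 6.17, Mylk 7.58 and Actg2 2.93 on the log2 scale). Each comparison is therefore given from the fit of all 36 arrays and from a fit of 35 arrays without that one. The array labelled WT OVA 4 had a Kit value of 6.90, inside the KitWsh range of 4.52 to 7.52 and under the other WT arrays (9.86 to 11.0). It and the arrays labelled KitWsh_MCifngR OVA 2 and 3 also had mean log2 values of 7.28, 7.71 and 7.30 for Y-linked genes although labelled female, and a fit of 32 arrays leaves out all 4. KitWsh_MC OVA array 2 had the second widest beta-actin difference, 6.23.

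The engraftment labels were set against 6 mast cell genes, chosen after values had been seen (Cpa3, Cma1, Mcpt4, Tpsb2, Fcer1a and Ms4a2). Cpa3, a mast cell carboxypeptidase, read 5.36 to 7.39 in KitWsh_MC OVA and 5.94 to 9.59 in KitWsh_MCifngR OVA, and Cma1, a mast cell chymase, 6.86 to 7.93 and 6.44 to 9.72. In KitWsh_MCigeR OVA 1 of 4 arrays exceeded log2 5 for Cpa3 and 2 of 4 for Cma1. In WT lungs, and in KitWsh lungs without engraftment, none of the 6 exceeded log2 5 in any array, and in KitWsh_MC PBS only Cma1 did. Kit itself was no higher with the engraftment, at a mean of 5.94 in KitWsh_MC OVA and 6.30 in KitWsh OVA. The 6 genes did not all go the same way. In KitWsh_MC OVA, Fcer1a exceeded log2 5 in 3 of 4 arrays, Tpsb2 in 2, and Mcpt4 and Ms4a2 in none. Ms4a2 averaged 3.85 there and 3.89 in KitWsh OVA. In KitWsh_MCifngR PBS, Cma1 exceeded log2 5 in 2 of 3 arrays and Ms4a2 in 1 of 3. In KitWsh_MCigeR PBS, Tpsb2 exceeded it in 1 of 3. Cpa3 and Cma1 were thus higher in KitWsh_MC OVA than in KitWsh OVA, and the part of mast cell numbers in the muscle values was not tested.

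**Figure D1:**
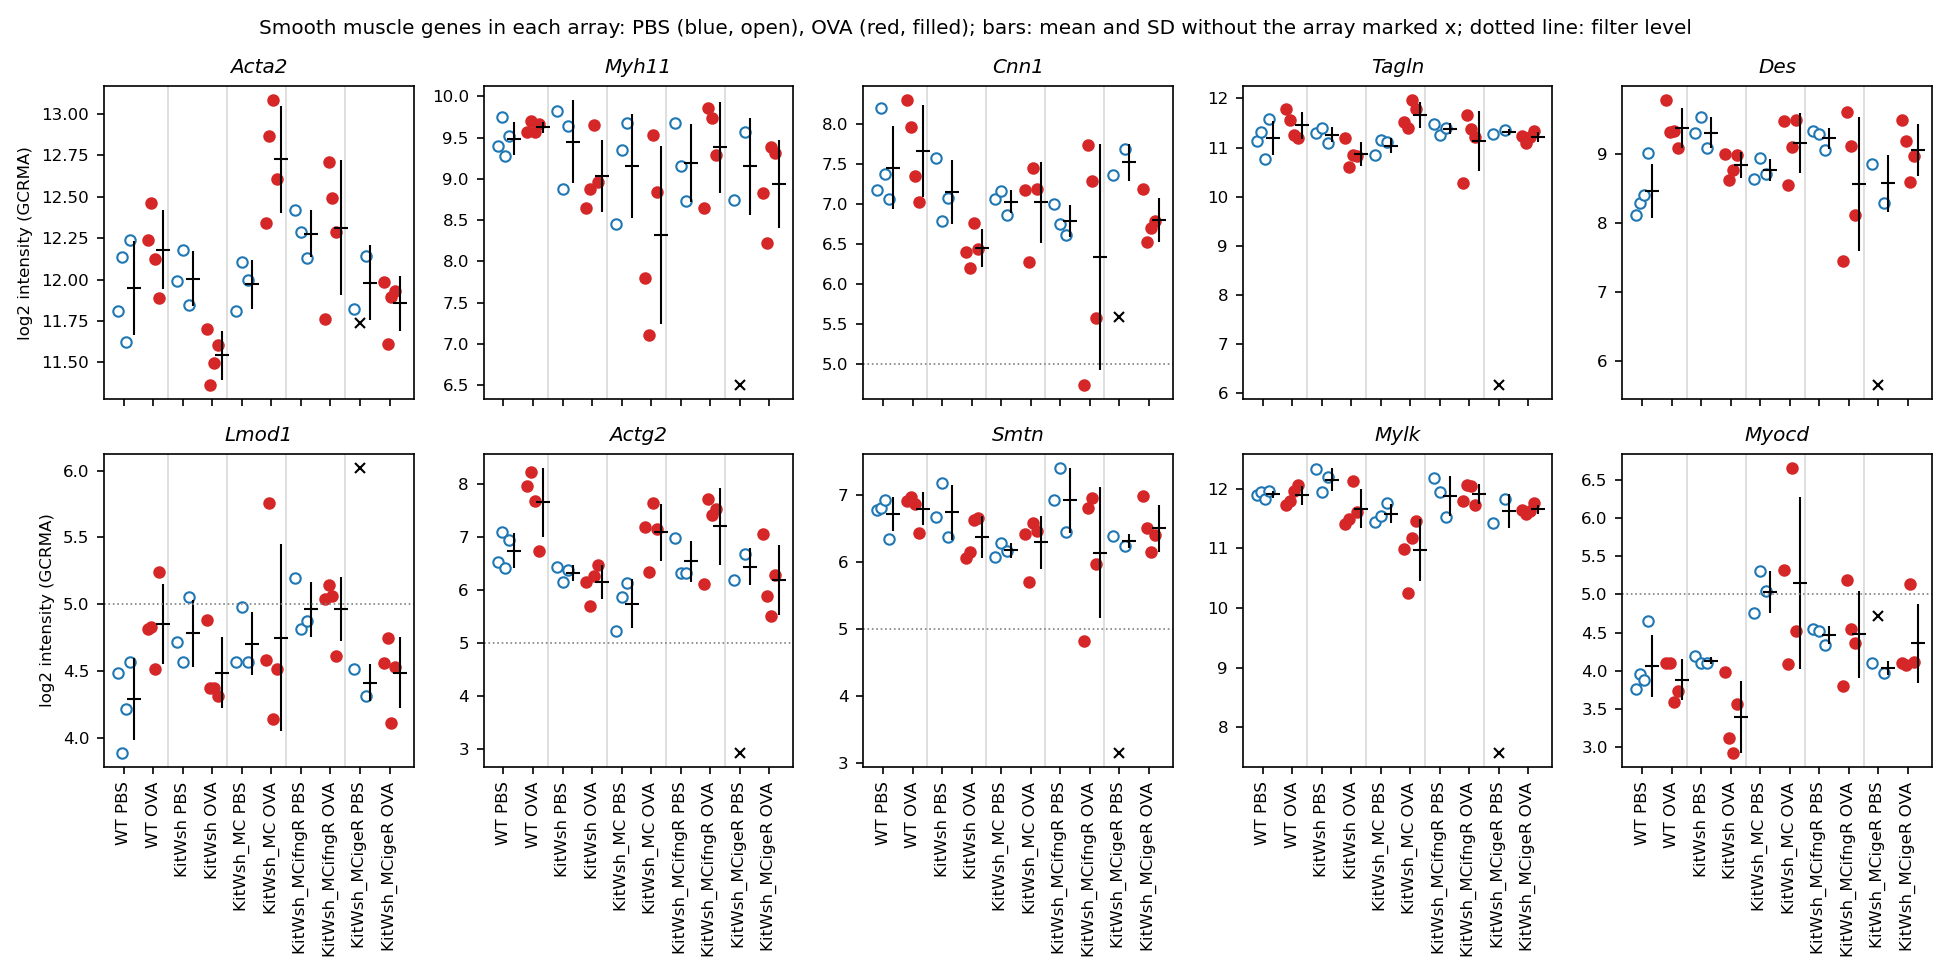
Each panel plots 1 smooth muscle gene, with the log2 GCRMA intensity of every array (y axis, its own range in each panel) by group (x axis). PBS arrays are open blue circles, OVA arrays filled red circles, and the cross is KitWsh_MCigeR PBS array 2, which lies lowest of all 36 arrays for Tagln (6.17), Mylk (7.58) and Actg2 (2.93). The bars give the mean and SD of each group without that array, and the dotted line is the filter level of log2 5.

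Of the 17 probe sets, 5 never exceeded log2 5 in any array. The probe set with the highest mean stands for each gene, and for Acta2 its ID ends in _s_at, a suffix for probes that can match related transcripts. Means below are without KitWsh_MCigeR PBS array 2, and an error after ± is the SD between arrays. When the 10 groups were put in order of their mean, only 6 of the 90 steps between neighbours, over the 10 genes, exceeded the larger SD of the pair. Acta2 had 2 of them. Its mean was highest in KitWsh_MC OVA (12.72 ± 0.32, n = 4) and lowest in KitWsh OVA (11.54 ± 0.15, n = 4), and the other 8 group means lay between 11.86 and 12.31. Mylk had 2 as well, which set its highest group, KitWsh PBS (12.15 ± 0.20, n = 3), and its lowest, KitWsh_MC OVA (10.97 ± 0.52, n = 4), apart from their neighbours. Cnn1 had 1 and Myocd 1, at the low end of the scale, and Myh11, Tagln, Des, Lmod1, Actg2 and Smtn had none.

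Challenged lungs with the MC engraftment were compared with challenged lungs without engraftment, which asks how the muscle genes stand in allergic lungs with and without that engraftment. Acta2, smooth muscle α-actin, was 2.27-fold higher in KitWsh_MC OVA than in KitWsh OVA. Myocd was called too, with every KitWsh OVA array under log2 5, and it had passed the filter mainly through KitWsh_MC arrays. With 35 arrays Tagln and Actg2 were higher as well and Mylk was lower. Myh11, Cnn1, Des, Lmod1 and Smtn did not pass the test in either fit. With 36 arrays 2 of 10 genes were called, both higher, where 8.85% of all tested genes were called in either direction. With 35 arrays 5 of 10 were called, 4 higher and 1 lower, where 31.5% of all genes were.

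Acta2 read 12.34, 12.87, 13.08 and 12.61 in the 4 KitWsh_MC OVA arrays. The 4 KitWsh OVA arrays read 11.70, 11.36, 11.50 and 11.60. Every engrafted array lay above every array of the other group. The log2 difference was 1.18 ± 0.186 (SE), with an adjusted p of 0.000325 with 36 arrays and 5.86e-05 with 35. It passed the test in 8 of 8 fits that left out a compared array and in 12 of 12 other settings. The beta-actin difference averaged 3.34 in KitWsh_MC OVA (2.21 to 6.23) and 1.74 in KitWsh OVA (1.29 to 2.62). With that difference as a covariate the Acta2 estimate was 1.24. KitWsh_MC OVA arrays 1, 3 and 4 (2.33, 2.21 and 2.61) lay inside the KitWsh OVA range of that difference. The Gapdh 3' minus 5' difference, which was not in the fit, overlapped little, at 2.19 to 6.77 against 0.37 to 2.30. This fit therefore cannot separate RNA quality from group, and the part of RNA quality was not tested beyond this.

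Actg2, smooth muscle γ-actin, read 7.18, 6.34, 7.64 and 7.15 in KitWsh_MC OVA and 6.14, 5.70, 6.27 and 6.46 in KitWsh OVA. KitWsh_MC OVA array 2 fell inside the range of the unengrafted group and the other 3 arrays lay above it. The log2 difference was 0.93 ± 0.343 in the 35-array fit (adjusted p = 0.0374), and the 36-array fit gave an adjusted p of 0.254.

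Tagln, an actin-bundling protein of early smooth muscle, read 11.51, 11.39, 11.96 and 11.78 in KitWsh_MC OVA. In KitWsh OVA it read 11.18, 10.61, 10.84 and 10.82. The groups did not overlap. The log2 difference was 0.80, with an SE of 0.206 and an adjusted p of 0.00486 with 35 arrays, and an SE of 0.590 and an adjusted p of 0.436 with 36.

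Mylk went the other way. It read 10.99, 10.25, 11.17 and 11.46 in KitWsh_MC OVA and 11.41, 11.49, 12.13 and 11.61 in KitWsh OVA, so that only array 4 of the first group reached the range of the second. The log2 difference was -0.69 ± 0.186 with 35 arrays (adjusted p = 0.00632), and the adjusted p was 0.390 with 36. KitWsh_MC OVA array 2, with the widest beta-actin difference of the group, had the lowest Mylk value, and without it and KitWsh_MCigeR PBS array 2 the difference was -0.45. With the beta-actin difference as a covariate the estimate was 0.037 (adjusted p = 0.928), and the part of RNA quality in the lower Mylk value was not tested beyond this. The dimmest of the 3 Mylk probe sets was lower in KitWsh_MC OVA than in KitWsh OVA (adjusted p = 0.0243 over all probe sets). It was under log2 5 in every KitWsh_MC array. In KitWsh OVA it read 4.39 to 6.48, with 2 of 4 arrays over 5, so neither a fold size nor a bound is given. The remaining Mylk probe set differed by -0.57 in challenged mice and did not pass (adjusted p = 0.731).

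Myocd, the coactivator, was near the lower end of the scale. It read 5.33, 4.10, 6.65 and 4.53 in KitWsh_MC OVA, and 3.98, 3.13, 2.93 and 3.57 in KitWsh OVA, where no array reached the filter level of 5. Array 3 of the first group was well above the rest. In KitWsh_MC OVA 2 of 4 arrays exceeded 5. The mean there was 5.15, which includes arrays under 5, so neither a fold size nor a bound is given. Myocd also exceeded 5 in 2 of 3 KitWsh_MC PBS arrays. It did so in 1 of 4 KitWsh_MCifngR OVA and 1 of 4 KitWsh_MCigeR OVA arrays, and in no array of another group. It thus entered the test mainly through KitWsh_MC arrays, part of them from the group called higher here. The fit's adjusted p was 0.00354 with 36 arrays and 0.000779 with 35, for a difference of 1.75 on the log2 scale that rests on values set by the background model. The call was lost (adjusted p = 0.0634) when only these groups were fitted, and without KitWsh_MC OVA array 3 the difference was 1.25.

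Among the genes that were not called, the log2 difference was -0.71 for Myh11, 0.57 for Cnn1, 0.32 for Des, 0.26 for Lmod1 and -0.08 for Smtn. Their intervals in the 35-array fit all held 0, and the widest was that of Cnn1, from -0.27 to 1.40. Of these 5, Myh11 varied most within KitWsh_MC OVA, at 7.80, 7.11, 9.54 and 8.84 in the 4 arrays. Over the 10 genes the median log2 difference was 0.44, against -0.02 over all tested genes.

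**Figure D2:**
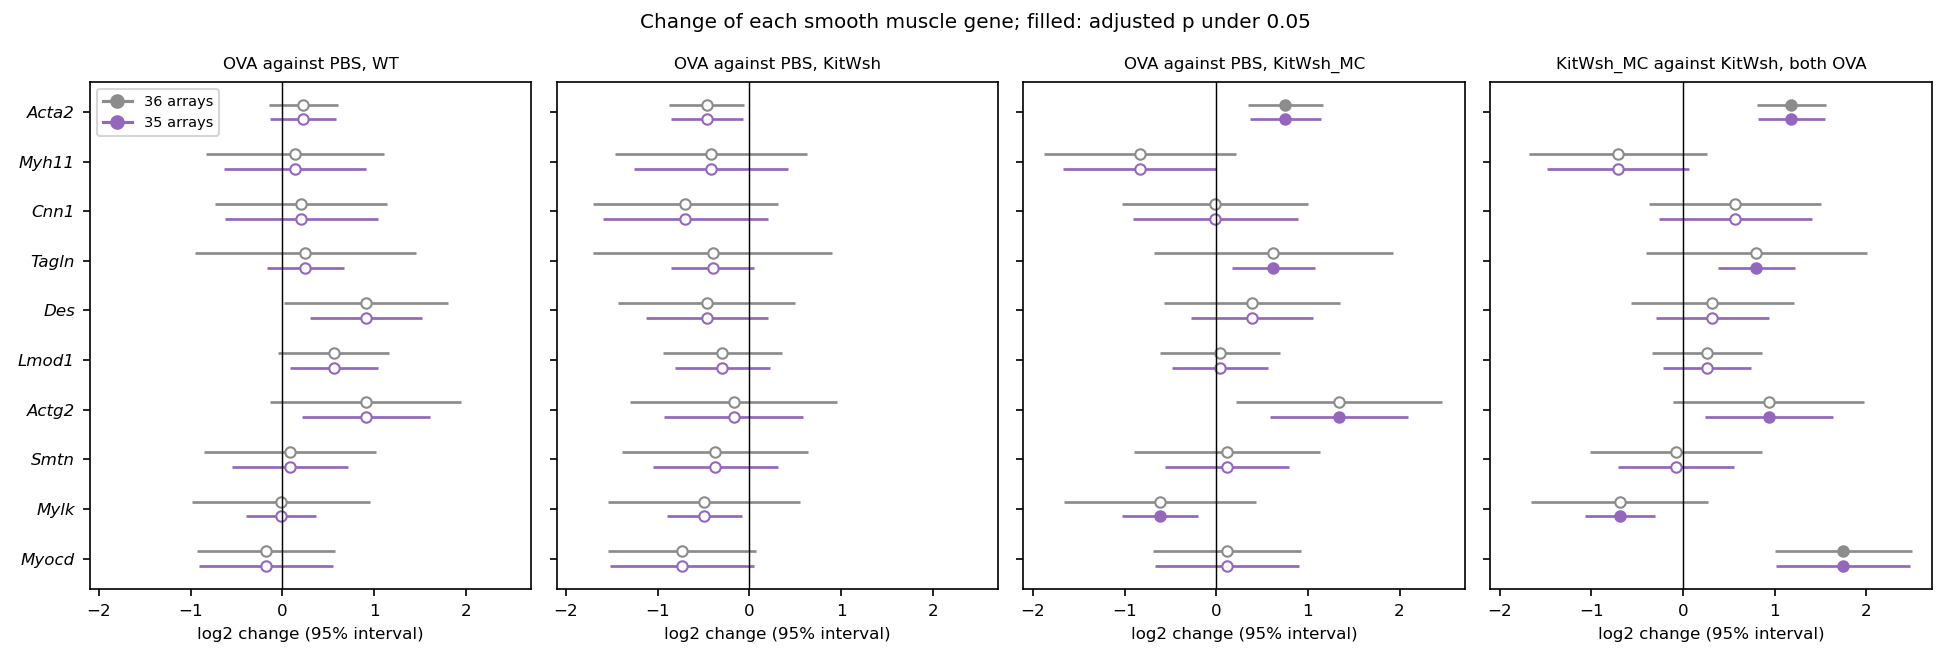
Points give the log2 change of each smooth muscle gene (x axis) and lines its 95% interval, from the fit of 36 arrays (grey) and of 35 arrays (purple), in 4 comparisons. Filled points have an adjusted p under 0.05. Acta2 is filled in both fits in the 2 panels on the right, at 0.75 and 1.18, and all 10 estimates of the KitWsh panel lie left of 0. Myocd in the last panel is set against arrays that were all under log2 5.

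Other smooth muscle genes were called in both directions. Of 23 other contractile apparatus genes tested, 1 was higher and 1 lower in KitWsh_MC OVA than in KitWsh OVA with 36 arrays (8.7%, where 8.85% of all genes were called), and 3 were higher and 6 lower with 35 (39.1%, where 31.5% of all genes were), both near the share of all genes. Tpm2, a β-tropomyosin of the thin filament, differed by 1.59 ± 0.225 (adjusted p = 0.000113), and Pdlim3, a protein of actin anchorage sites, by -1.16 ± 0.286 (adjusted p = 0.0109). Of 12 receptor, channel and signalling genes of smooth muscle, none was higher and 2 were lower with 36 arrays (16.7%), and 6 were lower with 35 (50%), against the same shares of all genes. The 2 were Gucy1a1, a subunit of the nitric oxide receptor guanylate cyclase, at -1.82 ± 0.456 (adjusted p = 0.0113), and Itga8, an integrin of contractile cells, at -0.98 ± 0.234 (adjusted p = 0.00852). Of 11 genes of the serum response factor and myocardin pathway, none was higher and 1 was lower, Tgfb1i1, at -0.67 ± 0.194 (adjusted p = 0.0283), which is 9.09% of the list, and 3 were lower with 35 arrays (27.3%).

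Markers of other cells in the same comparison were counted in the same way. With 36 arrays, where 8.85% of all genes were called, 2 of 9 pericyte markers were lower (Abcc9 and Ndufa4l2) and none of 8 fibroblast, 8 endothelial or 10 cardiomyocyte markers was called by limma. With 35 arrays, where 31.5% of all genes were called, the same 2 pericyte markers were lower and Cspg4 was higher, by 0.67 ± 0.182 (adjusted p = 0.00715), 4 fibroblast and 4 endothelial markers were lower, and no cardiomyocyte marker was called. At an unadjusted p under 0.05 with 36 arrays the counts of the 4 lists were 3, 4, 3 and 0, and the share of all genes was 25.3%. The part of a change in these cells in the muscle values was not tested.

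**Figure D3:**
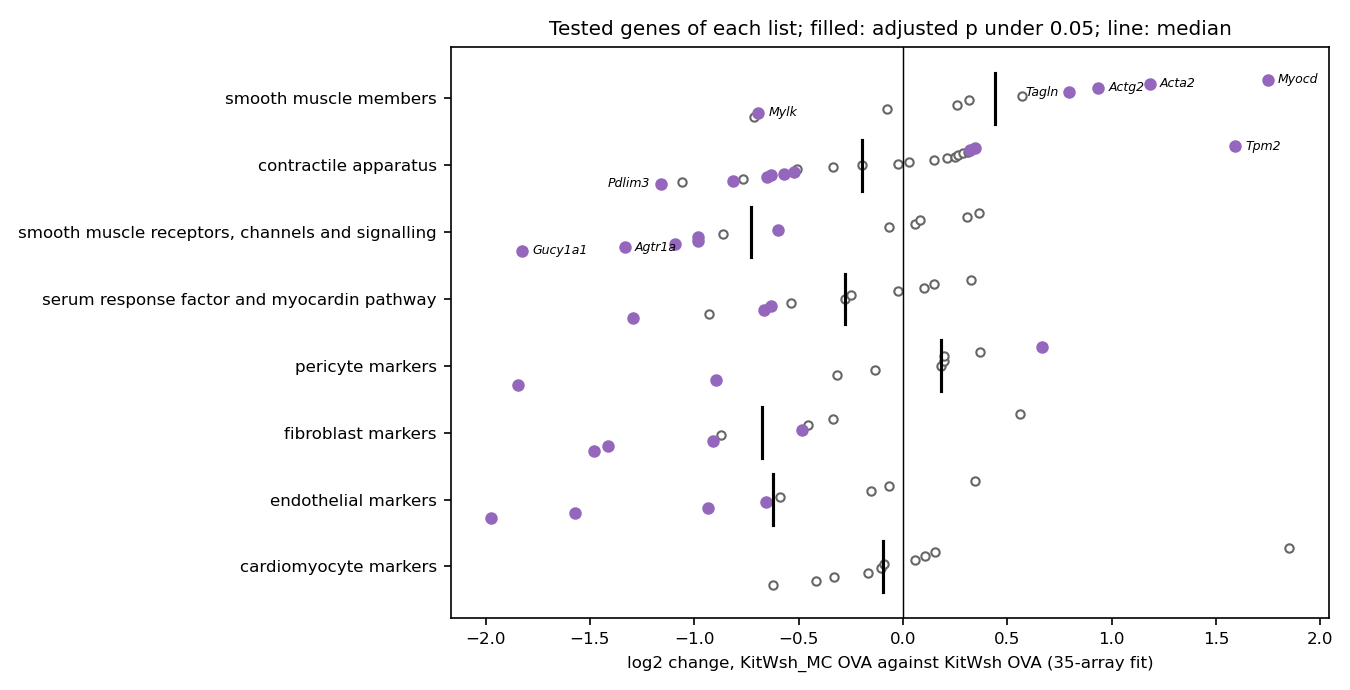
Each point is 1 tested gene, with its log2 change between KitWsh_MC OVA and KitWsh OVA in the 35-array fit (x axis), by list (y axis). Filled points have an adjusted p under 0.05, and the black line is the median of a list, 0.44 for the 10 smooth muscle genes and -0.73 for their receptors, channels and signalling genes.

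The response of engrafted mice to OVA was next compared with their own PBS controls. Acta2 was 1.69-fold higher in KitWsh_MC OVA than in KitWsh_MC PBS, and with 35 arrays Actg2 and Tagln were higher and Mylk lower. With 36 arrays 1 of 10 genes was called, where 6.52% of all genes were, and with 35 arrays 4 of 10, where 20.5% were. The KitWsh_MC PBS arrays read 11.81, 12.10 and 12.00 for Acta2, all under the 4 OVA arrays (12.34 to 13.08). The log2 change was 0.75 ± 0.200 (adjusted p = 0.0209 with 36 arrays and 0.00692 with 35). In the 36-array fit the call was kept in 3 of 7 fits without 1 compared array and lost without KitWsh_MC OVA array 2 or 3 or PBS array 1 or 3, with changes of 0.64 to 0.88 and adjusted p of 0.0125 to 0.0994. It was also lost when only these groups were fitted (adjusted p = 0.0927) and when each array was centred on its median (0.0906).

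Actg2 read 5.23, 5.87 and 6.12 in KitWsh_MC PBS, all under the 6.34 to 7.64 of the OVA arrays. Its change was the widest of the 10, at 1.34 ± 0.370 in the 35-array fit (adjusted p = 0.0122), and the 36-array fit gave 0.154. Tagln read 10.86, 11.15 and 11.10 in KitWsh_MC PBS, again under all OVA arrays, and changed by 0.62 ± 0.223 with 35 arrays (adjusted p = 0.0454, and 0.665 with 36). Mylk read 11.43, 11.55 and 11.76 in PBS and changed by -0.61 ± 0.201 with 35 arrays (adjusted p = 0.0308, and 0.571 with 36), with overlapping groups. Tpm2 was higher here too, by 1.09 ± 0.243 (adjusted p = 0.00655), as was the actin cross-linker Actn1 by 0.55 ± 0.162 (adjusted p = 0.0369). The intermediate filament gene Synm was lower by 2.01 on the log2 scale, with an SD of 1.35 between the OVA arrays. They are examples from the 23 other contractile apparatus genes, and the number called among those is not given here. Further means went both ways. Tns1 averaged 11.62 ± 0.95 (SD) in KitWsh_MC OVA against 12.73 ± 0.12 in KitWsh_MC PBS, and Fhl1 12.21 ± 0.34 against 13.13 ± 0.07. Rhoa averaged 11.93 ± 0.05 against 11.53 ± 0.07, and Pdlim7 8.39 ± 0.47 against 7.87 ± 0.16. No test of these 4 genes is given here.

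In KitWsh mice without engraftment, none of the 10 genes was called between OVA and PBS. All 10 estimates were negative, also with quantile normalisation and with median centring, from -0.17 for Actg2 to -0.73 for Myocd. Their median was -0.44, where the median of all tested genes was -0.10. Myocd was under log2 5 in every array of both groups and Lmod1 in every OVA array, so their signs rest on the background model. The share of all genes below 0 is not given here. Limma called 0 of 10 in both fits, where 0.621% of all genes were called with 36 arrays and 6.55% with 35. At an unadjusted p under 0.05 they were 1 and 2 of 10, and 13.1% and 24.7% of all genes. Acta2 read 11.99, 12.18 and 11.84 in KitWsh PBS, all above the 4 OVA arrays (11.36 to 11.70), and changed by -0.46 ± 0.200 (adjusted p = 0.307 and 0.128). Cnn1 read 7.57, 6.78 and 7.08 in PBS and 6.40, 6.20, 6.76 and 6.44 in OVA, without overlap by a narrow margin, and changed by -0.70 ± 0.496 (adjusted p = 0.626 with 36 arrays). Des did not overlap either. How many of all tested genes lacked overlap between these groups is not given here, so the lack of overlap is a description only. Limma's array weights, which give noisy arrays less influence, called 6 of the 10 as lower, in a fit that called 39.8% of all genes. The mean over the 10 genes was 7.65 to 7.99 in the OVA arrays and 8.27 to 8.43 in the PBS arrays, and over the 10 cardiomyocyte markers it was 7.52 to 8.73 against 8.47 to 9.78, beside which the change of Des, also a cardiac gene, has to be read.

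The OVA response itself was then set between kinds of mice. Acta2 rose with OVA in KitWsh_MC and not in KitWsh mice, and the difference of those responses was 1.22 ± 0.283 on the log2 scale (adjusted p = 0.0440 with 36 arrays and 0.00964 with 35). It was the only one of the 10 genes called in either fit, where 0.517% of all genes were called with 36 arrays and 5.53% with 35. In the 36-array fit the call was kept in 3 of 14 fits without 1 compared array, those without KitWsh_MC OVA array 1 or 3 or KitWsh OVA array 1, and lost in the other 11. Over the 14 fits the difference was 1.10 to 1.34, with adjusted p from 0.0282 to 0.148. It was lost with quantile normalisation (1.18, adjusted p = 0.0547), median centring (1.11, adjusted p = 0.208) and the mean of the gene's probe sets (0.52, adjusted p = 0.147). Tagln had the next smallest adjusted p, 0.0507 with 35 arrays, for a difference of 1.02. The responses of KitWsh_MC and KitWsh mice share no arrays.

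Between KitWsh and WT mice 0 of 10 response differences were called by limma in either fit, where 0.00862% and 0.181% of all genes were. At an unadjusted p under 0.05 they were 2 and 5 of 10 with 36 and 35 arrays, and 6.74% and 14.2% of all genes. All 10 were negative, under both other scalings too, where the median of all tested genes was -0.09 with 36 arrays. Myocd was under log2 5 in every array of these groups, and Lmod1 in every WT PBS and KitWsh OVA array, so their signs rest on the background model. The share of all genes below 0 is not given here. Des had the most negative difference, at -1.38 ± 0.443 with 35 arrays (adjusted p = 0.149). Between KitWsh_MC and WT mice limma called 0, against 0.069% and 0.543% of all genes, with Acta2 at 0.53 ± 0.273 (adjusted p = 0.893). There 0 and 1 of 10 had an unadjusted p under 0.05, as did 5.94% and 12.9% of all genes. Between KitWsh_MCifngR and KitWsh_MC mice limma called 0 as well, against 0.0345% and 1.48%, with Acta2 at -0.72 ± 0.283 (adjusted p = 0.350). The counts at an unadjusted p under 0.05 were 1 and 4 of 10, and the shares of all genes 10.1% and 20.9%. None of these shows that the responses were alike: the interval for Acta2 between KitWsh_MC and WT ran from -0.01 to 1.06 with 35 arrays.

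In WT mice no change passed the test with 36 or with 35 arrays. Limma called 0 of the 10 genes between WT OVA and WT PBS in either fit, where 1.36% of all genes were called with 36 arrays and 9.32% with 35. With an unadjusted p under 0.05 there were 1 and 3 of 10, and 15.5% and 27.9% of all genes. The estimate was above 0 for 8 of 10 (9 with quantile normalisation, where Mylk turned), with a median of 0.22. The median of all tested genes was -0.03. Lmod1 was under log2 5 in every WT PBS array and Myocd in every array of both groups. Des read 9.77, 9.31, 9.33 and 9.08 in WT OVA and 8.12, 8.30, 8.41 and 9.02 in WT PBS. These did not overlap, and PBS array 4 came close. The change was 0.91 ± 0.301 with 35 arrays (adjusted p = 0.0515). Actg2 read 7.96, 8.23, 7.68 and 6.73 in WT OVA and 6.52, 7.08, 6.40 and 6.94 in WT PBS, and OVA array 4 alone fell among the controls. Its change was 0.91 ± 0.343 with 35 arrays (adjusted p = 0.0826).

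WT OVA array 4 is the one whose Kit value and Y-linked values go against its label. In the 32-array fit, Des changed by 1.01 (adjusted p = 0.00589) and Actg2 by 1.22 (adjusted p = 0.0150), the 2 of 10 genes called in it, where 18.9% of all genes were. Acta2 read 12.24, 12.46, 12.13 and 11.89 in WT OVA and 11.81, 12.13, 11.62 and 12.24 in WT PBS, and its change of 0.23 ± 0.186 stayed under the spread between arrays. Mylk changed by -0.02 and Smtn by 0.08. Cardiomyocyte markers, which share Des with muscle of other kinds, averaged 8.35 to 9.12 in WT OVA and 7.23 to 9.60 in WT PBS. Array weights called 5 of the 10 as higher, in a fit that called 44% of all genes.

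Replacing the MC engraftment with the MCigeR one went with lower Acta2 in challenged mice. KitWsh_MCigeR OVA arrays read 11.98, 11.61, 11.89 and 11.93 for Acta2, all under the 12.34 to 13.08 of KitWsh_MC OVA. The log2 difference was -0.87 ± 0.186 (adjusted p = 0.0102 with 36 arrays and 0.00198 with 35), and it passed in 8 of 8 fits without 1 compared array. It missed the threshold when only these groups were fitted (adjusted p = 0.0523). With 36 arrays Acta2 was the only one of 10 called, against 2.93% of all genes. With 35 arrays Mylk was called too, 0.68 ± 0.186 higher (adjusted p = 0.0119), against 21% of all genes. Mylk read 11.64, 11.57, 11.63 and 11.76 in KitWsh_MCigeR OVA, above all 4 KitWsh_MC OVA arrays. The beta-actin difference averaged 1.95 in KitWsh_MCigeR OVA and 3.34 in KitWsh_MC OVA. Other muscle genes went both ways. Tpm2 differed by -1.15 ± 0.225 (adjusted p = 0.00509), in the direction of Acta2. Pdlim3 had the higher mean in KitWsh_MCigeR OVA, 5.84 against 5.04 in KitWsh_MC OVA, as did Gucy1a1, 11.69 against 10.26.

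Within KitWsh_MCigeR mice, OVA against PBS rests on the array that stands apart. With 36 arrays Des was the only gene of 10 called, at 1.45 ± 0.470 (adjusted p = 0.0458), where 19% of all genes were called. Des read 9.49, 9.18, 8.59 and 8.96 in OVA and 8.86, 5.66 and 8.28 in PBS, the middle value being that array. Without it the change was 0.48 ± 0.369 (adjusted p = 0.905), and limma called 0 of 10 and none of all genes (0%), with 0 of 10 and 6.35% of all genes at an unadjusted p under 0.05. Acta2 read 11.82, 11.74 and 12.14 in PBS and changed by -0.05, or -0.13 without the array.

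Challenged KitWsh_MCifngR and KitWsh_MC lungs overlapped for Acta2. It read 11.76, 12.71, 12.49 and 12.29 in KitWsh_MCifngR OVA, and the difference from KitWsh_MC OVA was -0.41 ± 0.186 (adjusted p = 0.139 and 0.0670). Limma called 0 of 10 with 36 arrays, where 13.2% of all genes were called, and 2 of 10 had an unadjusted p under 0.05, as did 28.5% of all genes. With 35 arrays it called 3 of 10, where 36.7% of all genes were called: Myh11 was higher by 1.06 ± 0.379 (adjusted p = 0.0289), Mylk was higher by 0.94 ± 0.186 (adjusted p = 0.000436) and Tagln was lower by 0.53 on the log2 scale (adjusted p = 0.0444). Mylk read 11.79, 12.06, 12.05 and 11.73 in KitWsh_MCifngR OVA, above all KitWsh_MC OVA arrays. The KitWsh_MCifngR OVA arrays differed widely among themselves: Cnn1 read 4.74, 7.74, 7.28 and 5.58 and Smtn 4.83, 6.81, 6.97 and 5.98. The high pair, arrays 2 and 3, are those with Y-linked values, and array 1 had the widest beta-actin difference of the group, 4.81.

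Between KitWsh_MCifngR OVA and PBS, limma called 0 of 10 in either fit, where 0.155% and 0.776% of all genes were called. At an unadjusted p under 0.05 it had 0 and 1 of 10, and 5.42% and 12% of all genes. Acta2 read 12.42, 12.28 and 12.13 in KitWsh_MCifngR PBS and changed by 0.04 ± 0.200. In the 32-array fit, with arrays 1 and 4 alone on the OVA side, Cnn1 changed by -1.62 (adjusted p = 0.0108), Smtn by -1.53 (adjusted p = 0.0105) and Des by -1.44 (adjusted p = 0.00859), 3 of 10 where 1.66% of all genes were called. Those 2 arrays had Gapdh 3' minus 5' differences of 7.51 and 5.69, against 1.28 and 2.25 in arrays 2 and 3. The 10 cardiomyocyte markers averaged 8.00 to 9.43 in the 4 OVA arrays and 9.29 to 10.23 in PBS. Array 1 alone of all 36 also held skeletal muscle transcripts, with Acta1 at 9.24, Myh1 at 9.95 and Tnni2 at 10.92, where no other array exceeded 4.81, and Des is made in striated muscle too. The part of RNA quality and of these muscles in the changes was not tested. Against KitWsh_MC OVA that fit called 6 of the 10, where it called 34.7% of all genes, with Mylk higher and Acta2, Cnn1, Tagln, Des and Smtn lower.

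Without challenge, 2 pairs of kinds were compared, and none of the 10 genes was called in either. Between KitWsh PBS and WT PBS limma called 0 of 10 in either fit, against 1.18% of all genes with 36 arrays and 7.92% with 35, and 0 and 1 of 10 had an unadjusted p under 0.05, against 12.2% and 23.3% of all genes. Des was the nearest, at 0.84 ± 0.325 with 35 arrays (adjusted p = 0.107). Des read 9.30, 9.53 and 9.08 in KitWsh PBS, all above the WT PBS arrays. Between KitWsh_MC PBS and KitWsh PBS limma called 0 of 10 as well, against 1.2% and 12%, and 1 and 2 of 10 had an unadjusted p under 0.05, against 12.8% and 27.2%. There Acta2 differed by -0.03 ± 0.214, and Mylk by -0.57 ± 0.215 with 35 arrays (adjusted p = 0.0776). Among single probe sets the dimmest one of Mylk was called there (adjusted p = 0.0106), higher in KitWsh PBS. Every KitWsh_MC PBS array was under log2 5 and 2 of 3 KitWsh PBS arrays were over it, so no fold size is given.

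Averaged over the 5 kinds of mice, 1 gene of 10 was called between OVA and PBS, Actg2, which was higher by 0.73 ± 0.243 with 36 arrays (adjusted p = 0.0373) and 0.50 ± 0.168 with 35 (adjusted p = 0.0281). The share called over all genes was 16.6% and 27.5%. The 36-array call was kept in 21 of 36 fits without 1 array and lost without any of WT OVA 1 and 2, WT PBS 1 and 3, KitWsh_MC OVA 1, KitWsh_MC PBS 1, KitWsh_MCifngR OVA 2, 3 and 4, KitWsh_MCifngR PBS 2 and 3, KitWsh_MCigeR OVA 1, KitWsh OVA 4 and KitWsh PBS 2 and 3. Over all 36 such fits the change was 0.50 to 0.87, with adjusted p from 0.0082 to 0.0656. The kinds were not alike: with 35 arrays Actg2 changed by 1.34 in KitWsh_MC, 0.91 in WT, 0.66 in KitWsh_MCifngR, -0.17 in KitWsh and -0.25 in KitWsh_MCigeR mice. Acta2, whose estimates also differ in sign between kinds, averaged 0.10 ± 0.088.

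Within groups most of the genes varied together from array to array. After group means were subtracted over 35 arrays, Pearson's r with the mean of the other 9 genes was 0.83 for Tagln, 0.81 for Cnn1, 0.75 for Actg2, 0.72 for Des, 0.70 for Acta2, 0.68 for Smtn, 0.60 for Myh11, 0.52 for Myocd and 0.45 for Mylk. Lmod1 had -0.32, and it and Myocd lay under log2 5 in most arrays. Of all 45 pairs 37 had r above 0, the highest being 0.82 for Acta2 with Tagln and 0.80 for Myh11 with Mylk. All 36 pairs without Lmod1 were among these 37. The share of such pairs among all tested genes is not given here. These values describe arrays that share RNA quality and normalisation, and have no p-value. KitWsh_MCifngR OVA array 1 and KitWsh_MC OVA array 2, both with wide beta-actin differences, were low for most genes, and Lmod1 was high in the second (5.76) and in KitWsh_MCigeR PBS array 2 (6.02).

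**Figure D4:**
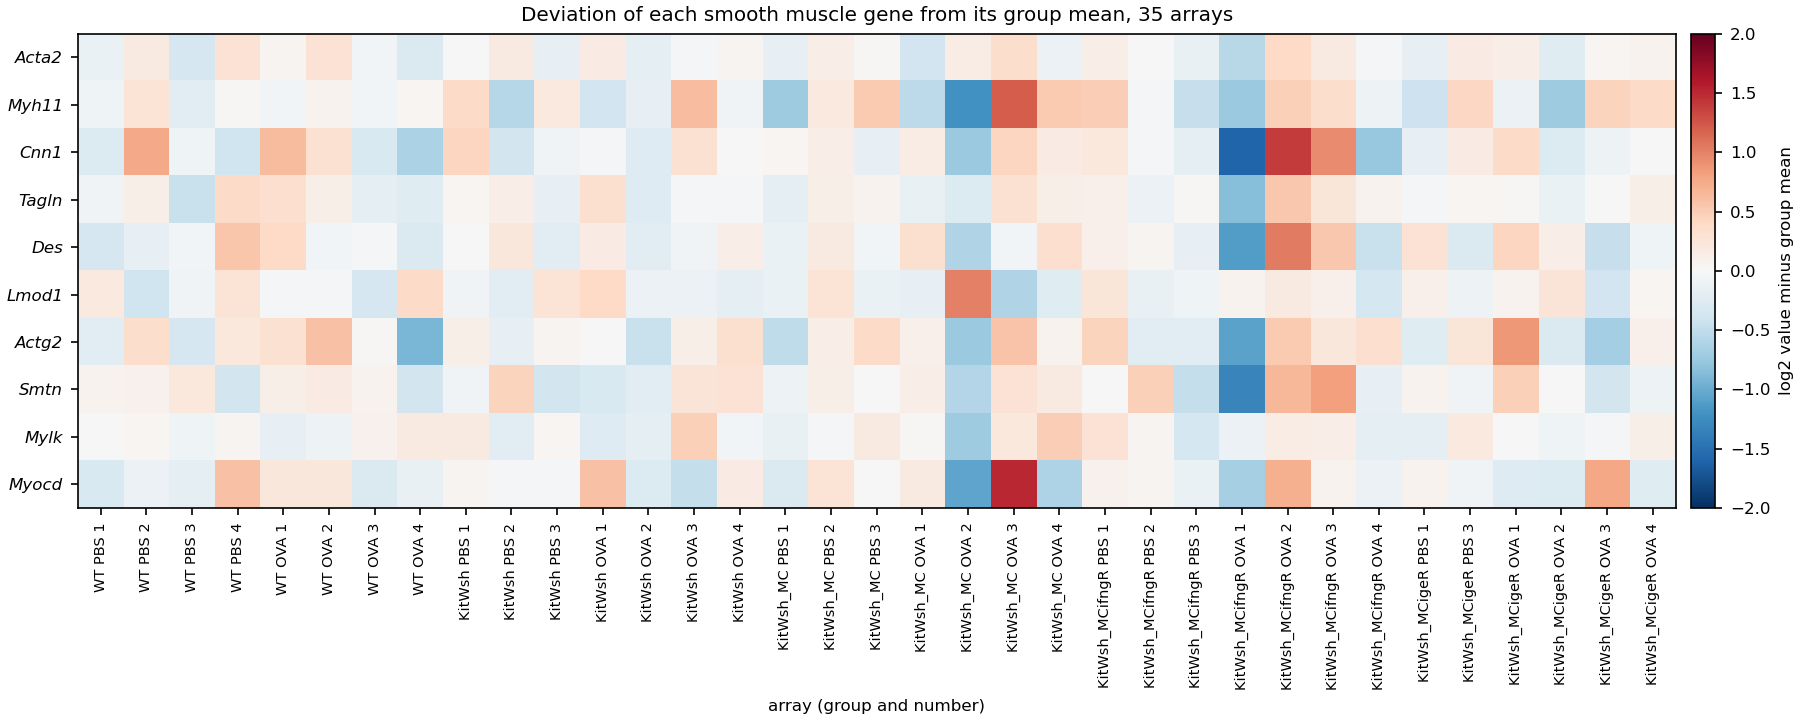
Colours give the log2 value of each smooth muscle gene (rows) minus its group mean, in 35 arrays (columns), from -2 (blue) to 2 (red). KitWsh_MCifngR OVA array 1 and KitWsh_MC OVA array 2 form the bluest columns. In the second, Lmod1 is the reddest, where it read 5.76, and Acta2 also lies slightly above its group mean.

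The 10 other genes whose group-centred values were most like the mean of these 10 over 35 arrays were Lox, Kdm6b, Stat3, Myl9, Dusp18, Rrbp1, Mlh3, Zdhhc8, Lipe and Nelfa, with r from 0.77 to 0.84. Lox, the collagen and elastin cross-linking enzyme, had 0.84, and Myl9, the regulatory light chain of smooth muscle myosin, had 0.79. The ranking was not stable: 4 of these 10 were also among the first 10 with 36 arrays, 1 with 32 arrays and 3 without subtracting group means.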

How the data were processed

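The values that the authors deposited are log2 intensities. The submitters' processing notes name GCRMA for them, with no version. This method models background from probe sequence, normalises arrays by quantiles and summarises probe sets, and low values are set by that model. Values ran from 2.19 to 15.9 and were not normalised further. After 64 control probe sets were left out, the probe set with the highest mean among those with 1 symbol in GEO's platform annotation stood for a gene. Genes over log2 5 in at least 3 arrays were tested with limma 3.58.1 in R 4.3.3 (10 group means, lmFit and eBayes, 26 residual degrees of freedom, two-sided, Benjamini-Hochberg adjustment over 11599 genes, called under 0.05), in 15 comparisons. The procedure was tested on simulated data. Errors after a log2 change are standard errors. The number of arrays limits the precision.

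The 10 genes and the 13 other lists were chosen with earlier results of these data known. The named genes were all 10, genes of other lists that were called or had the smallest adjusted p, the 10 most alike, and Kit; the mast cell genes and the skeletal muscle genes Acta1, Myh1 and Tnni2 were looked up after values were seen. No pairing was used. The alternatives were arrays left out, array weights, the groups fitted, normalisation, centring, filters, probe set choice and the beta-actin covariate, and 2 of the 12, which leave out arrays with beta-actin differences over 6 or over 4, were chosen after seeing the data. Gene positions, updated symbols and promoters come from RefSeq (GRCm38.p6).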

Additional observations from a re-analysis of the deposited data

Results flagged for a closer look

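Of 60 combinations of a gene and a group of 4 arrays, 2 held an array far from the others by Dixon's test, where chance flags about 1 in 20. Lmod1 read 4.88 in KitWsh OVA array 1 and 4.32 to 4.38 in the other 3. Myocd read 5.14 in KitWsh_MCigeR OVA array 3 and 4.08 to 4.12 in the other 3. Both genes lie near or under the filter level of log2 5 there, where values have no order. Of 40 differences of the OVA response between kinds of mice (10 genes in 4 pairs), 1 passed the test, that of Acta2 between KitWsh_MC and KitWsh mice, at 1.22 on the log2 scale.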

How the results depend on the processing

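The difference of Acta2 between KitWsh_MC OVA and KitWsh OVA passed the test in all 12 settings, at 0.52 to 1.24, the lowest value coming from averaging it with 2 probe sets that never exceed log2 5. Between KitWsh_MCigeR OVA and KitWsh_MC OVA Acta2 passed in 11 of 12. Mylk between KitWsh_MC OVA and KitWsh OVA reversed with the beta-actin covariate, to 0.037, and the cause was not tested. No paired analysis was possible because the numbers in the labels are those of samples and are shared by no groups.

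The number of the 10 genes called moved as follows, in the cases named, with the share of all genes called by the same fit in parentheses, and the cause was not tested. Without KitWsh_MCigeR PBS array 2 it was 4 (20.5%) for OVA against PBS in KitWsh_MC and 0 (0%) in KitWsh_MCigeR mice, and in challenged mice 5 (31.5%) for KitWsh_MC against KitWsh, 3 (36.7%) for KitWsh_MCifngR against KitWsh_MC and 2 (21%) for KitWsh_MCigeR against KitWsh_MC. With 32 arrays, OVA against PBS gave 2 (18.9%) in WT, 4 (22.9%) in KitWsh_MC, 3 (1.66%) in KitWsh_MCifngR, 0 (0%) in KitWsh_MCigeR mice and 3 (31.2%) over the mean of 5 kinds. The response differences gave 1 (0.569%) for KitWsh minus WT, 2 (6.89%) for KitWsh_MC minus KitWsh and 3 (1.3%) for KitWsh_MCifngR minus KitWsh_MC, the challenged pairs, in the order above, 5 (33.9%), 6 (34.7%) and 3 (23.1%), and KitWsh PBS against WT PBS 1 (9.49%). With array weights, OVA against PBS gave 5 (44%) in WT, 6 (39.8%) in KitWsh, 5 (31.4%) in KitWsh_MC, 1 (17.5%) in KitWsh_MCifngR, 0 (0.879%) in KitWsh_MCigeR mice and 3 (49.7%) over the mean. The response differences gave 7 (21.7%), 4 (19.1%) and 2 (21.7%) in the order above, the challenged pairs 5 (30.2%), 2 (36.6%) and 4 (14.6%), KitWsh PBS against WT PBS 3 (41.8%), and KitWsh_MC PBS against KitWsh PBS 2 (33.8%). With only the groups compared, OVA against PBS gave 1 (11.5%) in WT, 0 (5.18%) in KitWsh_MC and 0 (0%) in KitWsh_MCigeR mice, KitWsh minus WT 1 (1.68%), challenged KitWsh_MC against KitWsh 1 (4.72%), challenged KitWsh_MCigeR against KitWsh_MC 0 (2.25%), and the PBS pairs 1 (16.1%) and 2 (18%).

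Quantile normalisation gave 0 (10.1%) for KitWsh_MCigeR OVA against PBS and 0 (0.535%) for KitWsh_MC minus KitWsh. Median centring gave 0 for both (16.3% and 0.0948%) and 0 (7.14%) for KitWsh_MC OVA against PBS. Centring moved the median of all genes most for KitWsh_MCigeR OVA against PBS, by -0.52 on the log2 scale, where Myocd turned, then for challenged KitWsh_MCifngR against KitWsh_MC, by -0.18, where Actg2 turned, and for KitWsh_MC PBS against KitWsh PBS, by 0.14, where Acta2, Cnn1 and Lmod1 turned. No filter gave 0 (0.033%) for KitWsh_MCigeR OVA against PBS and 0 (9.95%) over the mean of 5 kinds. A filter at log2 over 7 gave 2 (28.5%) for KitWsh_MCigeR OVA against PBS and 1 (8.77%) for challenged KitWsh_MC against KitWsh, with Myocd no longer tested. Averaging all probe sets of a gene gave 0 (0.0491%) for KitWsh_MCigeR OVA against PBS, 1 (9.32%) for challenged KitWsh_MC against KitWsh and 0 (0.736%) for KitWsh_MC minus KitWsh. The beta-actin covariate gave 1 (6.86%) in WT, 2 (14.3%) in KitWsh_MC and 0 (0%) in KitWsh_MCigeR mice, 2 (3.29%) for KitWsh_MC minus KitWsh, 6 (15.3%), 2 (30.1%) and 3 (4.86%) for the challenged pairs and 1 (6.39%) for KitWsh PBS against WT PBS. Without the 2 arrays with a beta-actin difference over 6, the values were 2 (13.7%) in WT, 3 (15.6%) in KitWsh_MC, 0 (0%) in KitWsh_MCigeR mice, 3 (5.35%) for KitWsh_MC minus KitWsh, 5 (20.3%), 4 (32.4%) and 3 (9.4%) for the challenged pairs, and 1 (17%) for KitWsh_MC PBS against KitWsh PBS. Without the 4 arrays over 4, they were 3 (15.9%) in WT, 1 (11.5%) in KitWsh, 3 (17.1%) in KitWsh_MC, 0 (0%) in KitWsh_MCigeR mice, 2 (34.6%) over the mean, 1 (1.44%) for KitWsh minus WT, 3 (6.17%) for KitWsh_MC minus KitWsh, 5 (21.5%), 1 (22.7%) and 4 (10.5%) for the challenged pairs, and 1 each for the PBS pairs (11.9% and 18.2%). Leaving out 1 compared array gave 0 to 1 for KitWsh_MC OVA against PBS, 0 to 6 for KitWsh_MCigeR OVA against PBS (6 without PBS array 3), 0 to 1 over the mean and 0 to 1 for KitWsh_MC minus KitWsh, and moved no other count.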
